A study of Mus musculus with 7 samples.

Results

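C1q cells of mouse bone marrow were cells with at least 4 unique molecular identifiers (UMIs, each counting 1 captured RNA molecule) of C1qa, C1qb and C1qc together, and with at least 2 of these 3 genes detected. There were 756 such cells among 54669 cells that passed the quality limits, and 584 of the 756 carried a single sample tag. The cells were selected on their measured C1qa, C1qb and C1qc counts, so these levels are described here and not tested. Whole marrow from spine, hips, femur and tibia had been depleted of red cells by lysis, tagged with oligonucleotide-labelled antibodies (hashtags), mixed into 4 pools and sequenced as 7 droplet libraries with a 10x Genomics kit. The hashtags name 20 samples: 2 chronic samples (HRO.5 and HRO.6), 6 other HRO samples, 3 HRY, 4 WTO and 3 WTY samples, and HR.7 and HR.AE, which stand alone. The series text gives a TET2 mutation and the word chronic for HRO.5 and HRO.6. Genotype, strain, treatment, age and sex of the other samples are not stated in the labels, and the letters of the tags are not interpreted. The labels do not tie each hashtag to its own animal. The p-values therefore rest on variation among tags, and that variation may be technical.

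C1q is the recognition molecule of the classical complement pathway. It is built from the A, B and C chains, encoded by C1qa, C1qb and C1qc, and it binds antibody complexes, dying cells and debris. Unlike most complement proteins, which the liver makes, C1q comes mainly from macrophages and immature dendritic cells. In bone marrow, macrophages take up expelled erythroblast nuclei and aged neutrophils, recycle heme iron and form part of the niche of blood stem cells.

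The 3 genes lie next to each other on the minus strand of mouse chromosome 4 (GRCm38): C1qb (ENSMUSG00000036905) at chr4:136880129-136886187, C1qc (ENSMUSG00000036896) at chr4:136889804-136893065 and C1qa (ENSMUSG00000036887) at chr4:136895917-136898803. Together they span 18675 bp, with gaps of 3616 bp between C1qb and C1qc and 2851 bp between C1qc and C1qa. The promoters of C1qb and C1qc, from 250 bases before to 50 bases after the gene start in RefSeq (GRCm38.p6), are printed because C1qb was also found without its partner chains, as described further on. Capitals mark the core bound by the myeloid factor PU.1 (GAGGAA, or TTCCTC on the other strand) and the Maf core (TGCTGA, or TCAGCA on the other strand).
C1qb, chr4:136886151-136886450, minus strand: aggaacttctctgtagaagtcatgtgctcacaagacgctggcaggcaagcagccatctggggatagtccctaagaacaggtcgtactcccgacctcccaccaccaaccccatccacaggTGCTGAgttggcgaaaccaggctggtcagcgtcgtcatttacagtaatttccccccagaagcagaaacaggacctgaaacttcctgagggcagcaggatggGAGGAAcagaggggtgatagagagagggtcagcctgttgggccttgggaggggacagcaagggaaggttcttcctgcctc
C1qc, chr4:136892865-136893164, minus strand: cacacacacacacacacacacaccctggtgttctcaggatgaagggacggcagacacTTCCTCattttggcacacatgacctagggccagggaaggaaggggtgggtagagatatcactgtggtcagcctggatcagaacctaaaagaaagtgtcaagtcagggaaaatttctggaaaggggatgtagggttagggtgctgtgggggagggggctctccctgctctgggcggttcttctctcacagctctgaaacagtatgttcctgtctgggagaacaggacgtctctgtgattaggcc
The C1qb promoter held 1 PU.1 core at base 221 and 1 Maf core at base 120, and the C1qc promoter held 1 PU.1 core, on the other strand, at base 58, counting from the first printed base. Of 32851 promoters of the same length, 28.3% held the PU.1 core and 19.5% the Maf core on either strand. A match is a run of letters and was not tested as a binding site.

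The libraries held 25343305 to 95553827 UMIs each. The libraries WBM_3a and WBM_3b shared 2078 barcodes, against at most 51 for any other pair, and the copy with fewer UMIs was dropped. C1q cells had a median of 8120 UMIs, against 4749 in other kept cells, and the median was 2972 in pool WBM_1, 8965 in WBM_2, 5108 in WBM_3 and 9704 in WBM_4. Pools WBM_1 and WBM_4 stood apart. Of the 111 C1q cells of WBM_1, 72.1% also passed a neutrophil gate (at least 6 UMIs of Ly6g, Camp, Ltf, Ngp, Retnlg and Mmp8, with 2 detected), as did 64.4% of 45 in WBM_4, against 11.8% of 498 in WBM_2 and 20.6% of 102 in WBM_3. The counts of this gate among other cells are given further on. Both chronic samples belong to WBM_1.

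C1q content varied widely among the members. The summed C1q count had a median of 26 UMIs, quartiles of 9 and 79.2, and a range of 4 to 678. All 3 chains were detected in 587 cells and 2 chains in 169. At the edge of the rule, 85 members had 4 or 5 UMIs, while 65 cells just outside had 3 UMIs from 2 or 3 chains. Summed over cells, Apoe was 776 CPM (UMIs of a gene per 1e6 UMIs summed over the cells) just inside and 798 CPM just outside, Csf1r 256 and 234 CPM, and S100a8 26777 and 20669 CPM.

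Free RNA in droplets, or a droplet with more than 1 cell, can give stray C1q UMIs to cells that should lack the genes. The source was not tested here. At least 1 C1q UMI was seen in 2.93% of 3927 B-gated cells (median 2404 UMIs), 3.65% of 2496 T or NK-gated cells (3907 UMIs) and 2.41% of 33910 neutrophil-gated cells (4534 UMIs). The share was 6.68% in the 9547 cells of the monocyte gate, set by Csf1r with Ly6c2, Ccr2, F13a1 and Fn1, whose median depth was 8578 UMIs. The chains were unevenly represented there: C1qb made up 77.8% of the C1q UMIs of monocyte-gated cells, against 46% in C1q cells, 49.4% in neutrophil-gated cells and 38.5% in B-gated cells. The gates leave out C1q cells, so cells with at least 4 UMIs of a single chain stay in them. In the monocyte gate there were 36 such cells, 35 of them with C1qb. The rule thus enters the comparison with C1q cells, and the size of its part was not tested. Among monocyte-gated cells with exactly 1 C1q UMI, it was C1qb in 280 of 409 (68.5%). These are shares of counted molecules, not levels per length.

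A further 49 kept cells had at least 4 C1q UMIs from 1 chain and so fell outside the rule, and in 45 of them that chain was C1qb. Their median C1qb count was 5 UMIs and the highest 15, and 27 of the 49 came from HRO.7. Monocyte genes were frequent in the 45 cells: Ly6c2, a surface antigen of classical monocytes, was detected in 41, the chemokine receptor Ccr2 in 42 and the growth factor receptor Csf1r in 39. Saa3, an acute-phase gene, was detected in 28, Cxcl9 in 27, Apoe in 20, the engulfment receptor Mertk in 5 and the adhesion gene Vcam1 in 0. These cells were chosen after their values were seen.

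**Figure D1:**
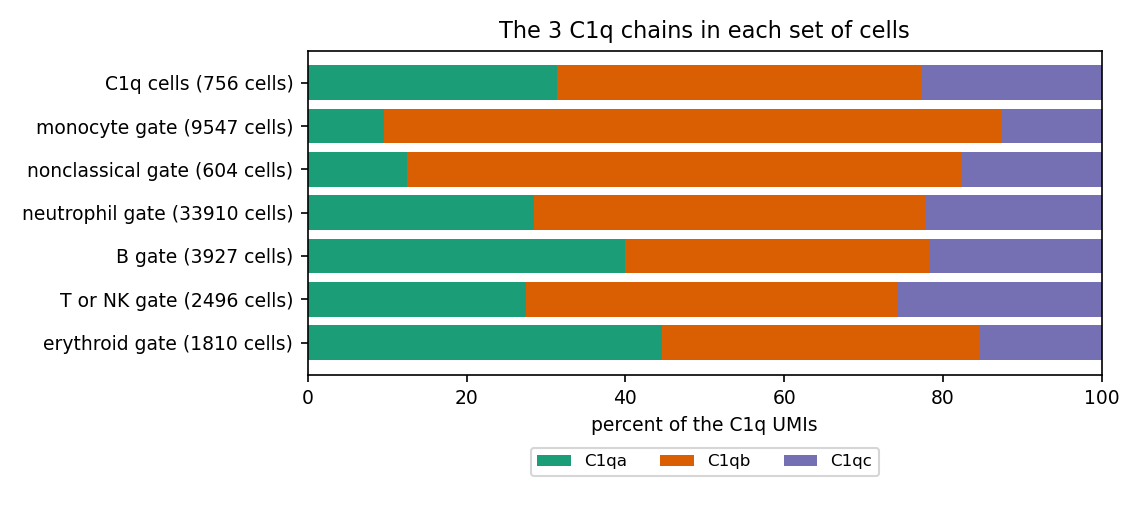
Each bar divides the C1q UMIs of a set of cells among C1qa, C1qb and C1qc, in percent of the C1q UMIs (x axis), with the number of cells in each label. C1qb takes 46% in C1q cells and 77.8% in the monocyte gate, where it is the largest share of the sets drawn. The gates leave out C1q cells but keep cells with many UMIs of a single chain.

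The label macrophage was checked against markers that the rule had not used. Shares of cells with a UMI are given beside those of B-gated cells, which should lack most of these genes but were shallower, with a median of 2404 against 8120 UMIs. A contrast with B-gated cells cannot tell macrophages from monocytes, and the monocyte gate itself requires Csf1r. Levels beside the monocyte gate are given further on. Of the 756 C1q cells, 81.7% had a UMI of Csf1r, against 5.83% of B-gated cells, and 62% one of Adgre1, which encodes the macrophage antigen F4/80, against 4.69%. Apoe was detected in 77.1%, against 26.5%. Vcam1 was detected in 36.6% against 2.72%, the mannose receptor Mrc1 in 18.3% against 1.07%, and the engulfment receptor Axl in 43.9% against 1.53%. The heme oxygenase Hmox1 was detected in 49.3% against 4.58%, and the iron exporter Slc40a1 in 13.5% against 4.94%. Among further genes of tissue-resident macrophages, a UMI of Cd163 was seen in 1.72% against 0.153%, of Vsig4 in 0.926% against 0.0509%, of Timd4 in 15.2% against 0.0255% and of Cd5l in 8.86% against 0.229%. A cell without a UMI may still express the gene. Classical monocyte genes were common, with Ly6c2 in 66.8% against 33.3% and Ccr2 in 61.5% against 13%. Markers of resident macrophages and of monocytes were both seen, and the cells are called C1q cells here, after the rule.

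Many C1q cells passed the gate of another cell type as well. The monocyte gate was passed by 366 of 756 (48.4%), a nonclassical monocyte gate (Csf1r with Ace, Treml4, Cd300e and Spn) by 101 (13.4%), the neutrophil gate by 189 (25%), the T or NK gate by 58 (7.67%), the B gate by 25 (3.31%) and the erythroid gate by 7 (0.926%). No gate was passed by 226 (29.9%). Of the 53913 other kept cells, the monocyte gate took 9547, the nonclassical gate 604 and the neutrophil gate 33910. The T or NK gate took 2496 of them, the B gate 3927 and the erythroid gate 1810. The neutrophil gate was thus less frequent among C1q cells than among other kept cells. Droplets with hashtags of more than 1 sample held C1q cells at 1.88% (172 of 9166), against 1.36% (584 of 43024) among single-tag droplets. Whether a mixed droplet held a pair of cells or a cell with engulfed material was not tested.

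The samples differed in these overlaps. The monocyte gate took 57.9% of the C1q cells of HRO.7, 59.4% of HRO.8 and 76.9% of HRO.10, and 12.2% of HRO.9. Monocyte-gated cells that were not C1q cells made up 25.8%, 14.7%, 23.2% and 21.6% of the kept single-tag cells of these 4 samples. The neutrophil gate took 82.4% in HRO.5, 60.7% in HRO.6 and 75% in WTY.3, all of pool WBM_1, but also 68% in HRO.12 and 50% in HRO.11 of pool WBM_4, and 0% in HRO.9. Outside the C1q cells, that gate held 727 of 1166 kept single-tag cells in HRO.5, 2489 of 3139 in HRO.6 and 2485 of 3033 in WTY.3. It held 989 of 1223 in HRO.12, 1362 of 1564 in HRO.11 and 2684 of 4831 in HRO.9. Nonclassical monocyte genes were most frequent in HRO.12 (32%), HR.7 (28.3%) and HRO.9 (22%).

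**Figure D2:**
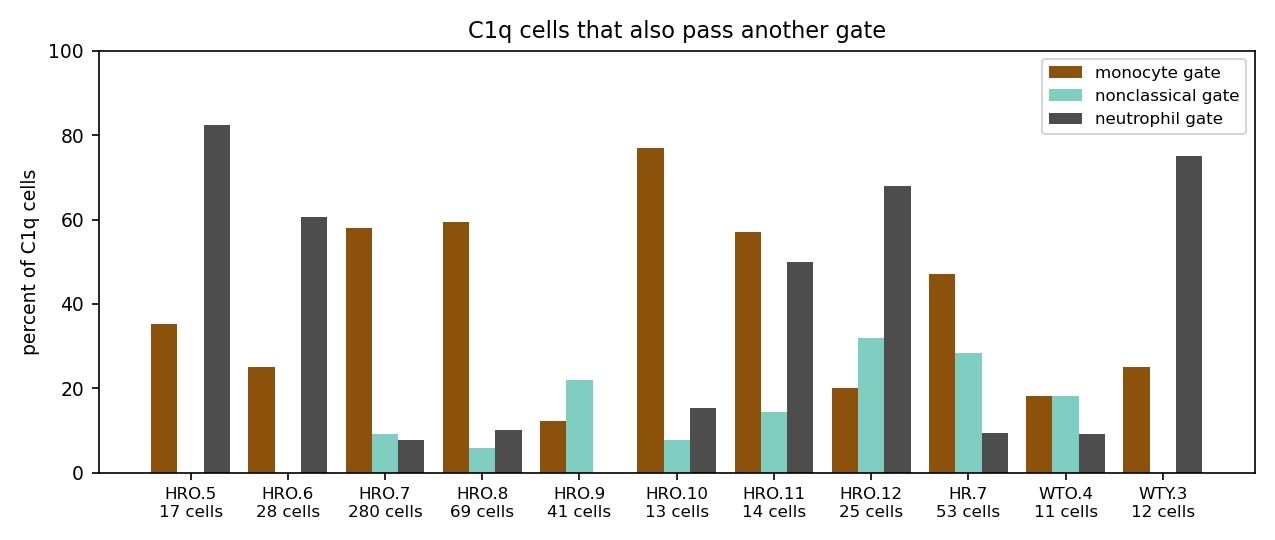
For each of the 11 samples with at least 10 C1q cells (x axis, with cell number), bars give the percent of C1q cells that also pass the monocyte, nonclassical monocyte or neutrophil gate (y axis, from 0). The neutrophil bars reach 82.4% in HRO.5 and 75% in WTY.3 and stand at 0 in HRO.9.

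C1q cells were more frequent in HRO marrow than in WTO marrow. Their share of single-tag cells was lowest in HRO.10 at 0.745%, had a median of 1.47% and was highest in HRO.7 at 5.06% among the 6 HRO samples. Among the 4 WTO samples it was 0.723% in WTO.3, 0.319% in WTO.4, 0.0795% in WTO.6 and 0 of 996 cells in WTO.5, which allows a share of up to 0.301%. The groups did not overlap, although HRO.10 and WTO.3 lay close together. HRO averaged 2.06 ± 1.68% (SD, n = 6) and WTO 0.280 ± 0.325% (SD, n = 4), a difference of 1.78 percentage points (exact two-sided permutation p = 0.00952, the smallest this design allows; adjusted over 5 pairs of groups, 0.0476). In a share, more C1q cells and fewer other cells cannot be told apart.

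HRO.7 alone supplied 280 of the 584 single-tag C1q cells (47.9%), and HRO.7 with HRO.8 349 (59.8%). Without HRO.7 and HRO.8 the difference between HRO and WTO was 0.853 points (exact permutation, adjusted p = 0.143, with groups too small to reach 0.05), and with any 1 of the 10 samples left out it was 1.18 to 2.04 points, again in designs that cannot reach an adjusted 0.05. In a further setting, cells with at least 2000 UMIs were thinned to 2000 and shallower cells were left out. At least 2 C1q UMIs from at least 2 chains were then required. This kept 5207 of 5530 cells in HRO.7 but 542 of 1106 in WTO.3. The difference was 1.44 points (exact permutation, adjusted p = 0.0714). HRO.11 at 0.621% and HRO.9 at 0.805% then lay below WTO.3 at 0.923%, which was 5 of 542 cells. Within pools, HRO was higher at 2.89% against 0.319% for WTO in WBM_2 and at 1.47% against 0.0397% in WBM_4. With the monocyte-gated cells plus C1q cells as the denominator, the difference was 7.17 points (exact permutation, adjusted p = 0.19).

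The Y-linked gene Ddx3y moved with the groups. It was at most 2.38 CPM in 5 of 6 HRO samples, in 1 of 4 WTO samples, in 0 of 3 HRY samples and in 1 of 3 WTY samples, and at least 41.7 CPM in the others. Its part in the differences in share was not tested. Among the samples with low Ddx3y, HRO shares ran from 0.745% to 5.06%, against 0.319% in WTO.4, and among those with high Ddx3y HRO.9 stood at 0.849%, against 0 to 0.723% in the 3 WTO samples.

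Against HRY, HRO marrow also held more C1q cells in every sample, but the adjusted test missed 0.05. The HRY samples had 0.397% in HRY.4, 0.138% in HRY.6 and 0 of 1106 cells in HRY.5, which allows up to 0.271%. The difference was 1.88 points (exact two-sided permutation p = 0.0238, the smallest this design allows; adjusted 0.0595), and within pool WBM_3 it was 0.745% in HRO against 0.069% in HRY. HRY averaged 0.178 ± 0.202% (SD, n = 3), and WTY 0.168 ± 0.205% (SD, n = 3), with 0.396% in WTY.3, 0.108% in WTY.4 and 0 of 1523 cells in WTY.5, which allows up to 0.197%. The difference between HRY and WTY was 0.0105 points (exact permutation, adjusted p = 0.8), where the smallest p is 0.1. WTO exceeded WTY by 0.113 points (exact permutation, adjusted p = 0.8), where the smallest p is 0.0571.

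The chronic samples had 1.46% in HRO.5 and 0.892% in HRO.6, inside the range of the other HRO samples. They averaged 1.17 ± 0.40% (SD, n = 2), against 2.06 ± 1.68% (SD, n = 6) in HRO, a difference of -0.884 points (exact permutation, adjusted p = 0.8; smallest p 0.0714). Both chronic samples came from pool WBM_1 and no other HRO sample did. HR.7, in no group, had 1.89%, and HR.AE had 0 of 1401 cells, which allows up to 0.214%. Stray C1q UMIs in B and T or NK-gated cells ran from 1.44% in HRO.9 to 4.36% in HRO.7 among HRO samples, were 4.08% and 3.28% in the chronic samples, and ran from 0 to 1.95% among WTO samples, from 0 to 1.61% among HRY samples and from 0 to 2.81% among WTY samples. The share was 6.58% in HR.7, the highest of the 20 samples, from 5 of 76 cells. These shares were not adjusted for depth. The gated cells had a median of 8070 UMIs in HRO.7 and 3297 in HRO.9, and of 1088 and 1399 in the chronic samples. The median was 851 UMIs in WTO.3, 2648 in WTO.4, 926 in HRY.4 and 1249 in WTY.3. Some values rest on few cells, such as 0 of 29 in WTY.4 and 0 of 37 in HRY.5. Intervals and limits cover counting error only.

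**Figure D3:**
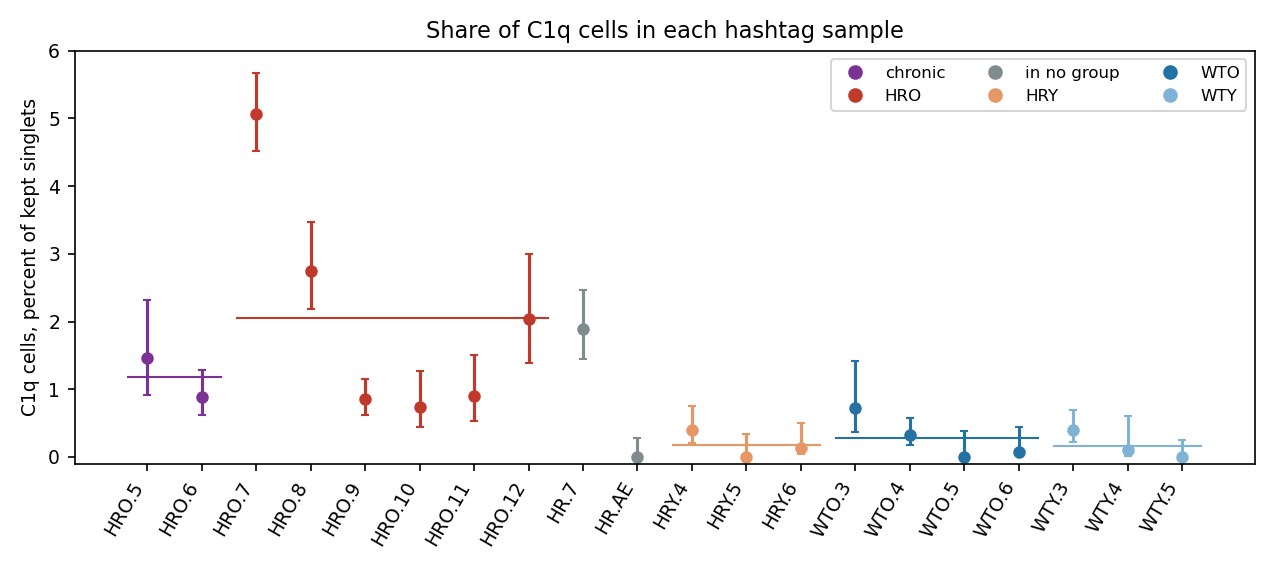
Points give C1q cells as percent of kept single-tag cells (y axis) in each of the 20 hashtag samples (x axis), with 95% Wilson intervals for counting error and a line at each group's mean. HRO points lie between 0.745% and 5.06% and WTO points between 0 and 0.723%.

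Levels in C1q cells were compared with the monocyte-gated cells of the same sample, in the 11 samples with at least 10 C1q cells. The rule chose C1q cells and the gate used Ly6c2, Ccr2, F13a1, Fn1 and Csf1r, so these are descriptions. Counts of samples above or below use each sample's own gate. Median log2 ratios of lists, and levels given without a sample or a median, instead pool all C1q cells and all monocyte-gated cells. These pools include droplets with several hashtags. HRO.7 held 280 of the 756 C1q cells and 1424 of the 9547 monocyte-gated cells, so sample composition enters the pooled ratios. Its part was not tested. Of 9306 genes, 134 (1.44%) were above the monocyte gate in all 11 samples and 694 (7.46%) below it in all 11. The C1q genes had 1882, 2761 and 1356 CPM over all C1q cells for C1qa, C1qb and C1qc, against 0.974, 7.9 and 1.27 CPM in the monocyte gate. By sample, C1qa was lowest in HR.7 at 493 CPM, had a median of 1019 CPM and was highest in HRO.7 at 2602 CPM. C1qb was lowest in WTY.3 at 515 CPM and highest in HRO.7 at 3856 CPM, with a median of 1618 CPM. C1qc was lowest in WTY.3 at 352 CPM and highest in HRO.12 at 2655 CPM, with a median of 781 CPM, so samples differed several-fold in each chain.

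The genes with the largest ratios included regulators and receptors of macrophages. Spic, the transcription factor of iron-recycling macrophages, was 73.9 CPM in C1q cells and 0.562 CPM in the monocyte gate, and was higher in 11 of 11 samples. Mertk, a receptor for dying cells, was 62.4 against 0.928 CPM and higher in 10 of 11 samples, and Nr1h3, the oxysterol receptor LXRα, was 85.8 against 1.32 CPM and higher in 11. The adhesion gene Cadm1 was 78.1 against 1.51 CPM, higher in 11 of 11. Dnase1l3, a nuclease that digests DNA in debris, was 94 against 1.26 CPM but higher in 7 of 11 samples, and HRO.7 held 59.2% of its UMIs.

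A few genes came from few cells. Ccl8, a chemokine, had 617 CPM in C1q cells against 0.375 CPM in the monocyte gate, but was detected in 97 cells, and 21 cells held 90% of its 4334 UMIs. Cxcl13, a B cell chemokine, had 132 against 0.0843 CPM, was detected in 35 cells, and 13 cells held 90% of its UMIs. Its highest levels were 2252 CPM in HRO.12 and 1137 CPM in HRO.11. Gm15056 had 433 against 1.09 CPM and was detected in 209 cells, but was above the gate in 5 of 11 samples, and HRO.7 held 56.3% of its UMIs.

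Lipid genes stood out by Apoe, which carries cholesterol out of macrophages. Among C1q cells it was lowest in HRO.11 at 1061 CPM, had a median of 2724 CPM and was highest in HRO.9 at 3645 CPM over the 11 samples, against 23.2, 293 and 996 CPM in the monocyte gate. It was above the gate of its own sample in all 11. Of the 13 lipid genes at 10 CPM or more, 4 were above in all 11 samples (Apoe, Abca1, Nr1h3 and Pltp) and 1 below (Lgals3), with a median log2 ratio of 1.95, against -0.16 over all 9306 genes.

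MHC class II genes, which present peptides to T cells, had 6 of 9 members above in all 11 samples, with a median log2 ratio of 2.42. H2-Aa ranged from 1320 CPM in HRO.12 to 7375 CPM in HRO.7 in C1q cells, against 18.9 to 1617 CPM in the monocyte gate. Cd74, the invariant chain, ranged from 3063 to 16323 CPM, against 111 to 5163 CPM. Monocyte-gated cells of HRO.7 and HRO.8 were themselves high, with H2-Aa at 1617 and 1377 CPM, above every other sample.

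Resident macrophage markers had 8 of 16 members above in all 11 samples and a median log2 ratio of 3.20. They included Mrc1, Axl, Spic, Adgre1, Maf, Trf and Selenop. Maf, a transcription factor of mature macrophages, had a median of 209 CPM over the 11 samples against 13.7 CPM in the monocyte gate. Vcam1 was 0 in HRO.11 and 591 CPM in HRO.6, with a median of 204 CPM, against 4.8 CPM in the gate.

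Iron and engulfment genes were mixed. Fth1, the ferritin heavy chain, Trf, the iron carrier, and Spic were above in all 11 samples, or 3 of 18 heme and iron genes, with a median log2 ratio of 0.87. Slc40a1, which exports iron, was 0 in HRO.9, HRO.10 and HRO.12, and 348 CPM in WTO.4 and 138 CPM in HRO.5. Hmox1, which breaks down heme, was lowest in WTY.3 at 27.1 CPM and highest in WTO.4 at 480 CPM, with a median of 126 CPM, against 42.6 CPM in the gate. Axl, Itgb5 and Sirpa were above in all 11 among 15 engulfment genes, and Mfge8, a bridge to dying cells, below. Axl was lowest in HRO.11 at 16.2 CPM and highest in WTO.4 at 456 CPM, with a median of 111 CPM, against 4.95 CPM in the gate.

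Lysosomal genes had 5 of 20 members above in all 11 samples (Ctsb, Ctsd, Lgmn, Cd63 and Lipa) and a median log2 ratio of 0.84. Of 14 macrophage transcription factors and receptors, 5 were above, among them Maf, Spic, Nr1h3 and Il10ra, and 1 below (Klf4). Of 11 other complement genes, C3ar1, the receptor for a fragment of C3, was the single one above in all 11 samples. Cell cycle genes went the other way, with 10 of 12 below in all 11 samples and a median log2 ratio of -1.71. Stmn1, a tubulin regulator of dividing cells, had a median of 198 CPM against 788 CPM in the gate.

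**Figure D4:**
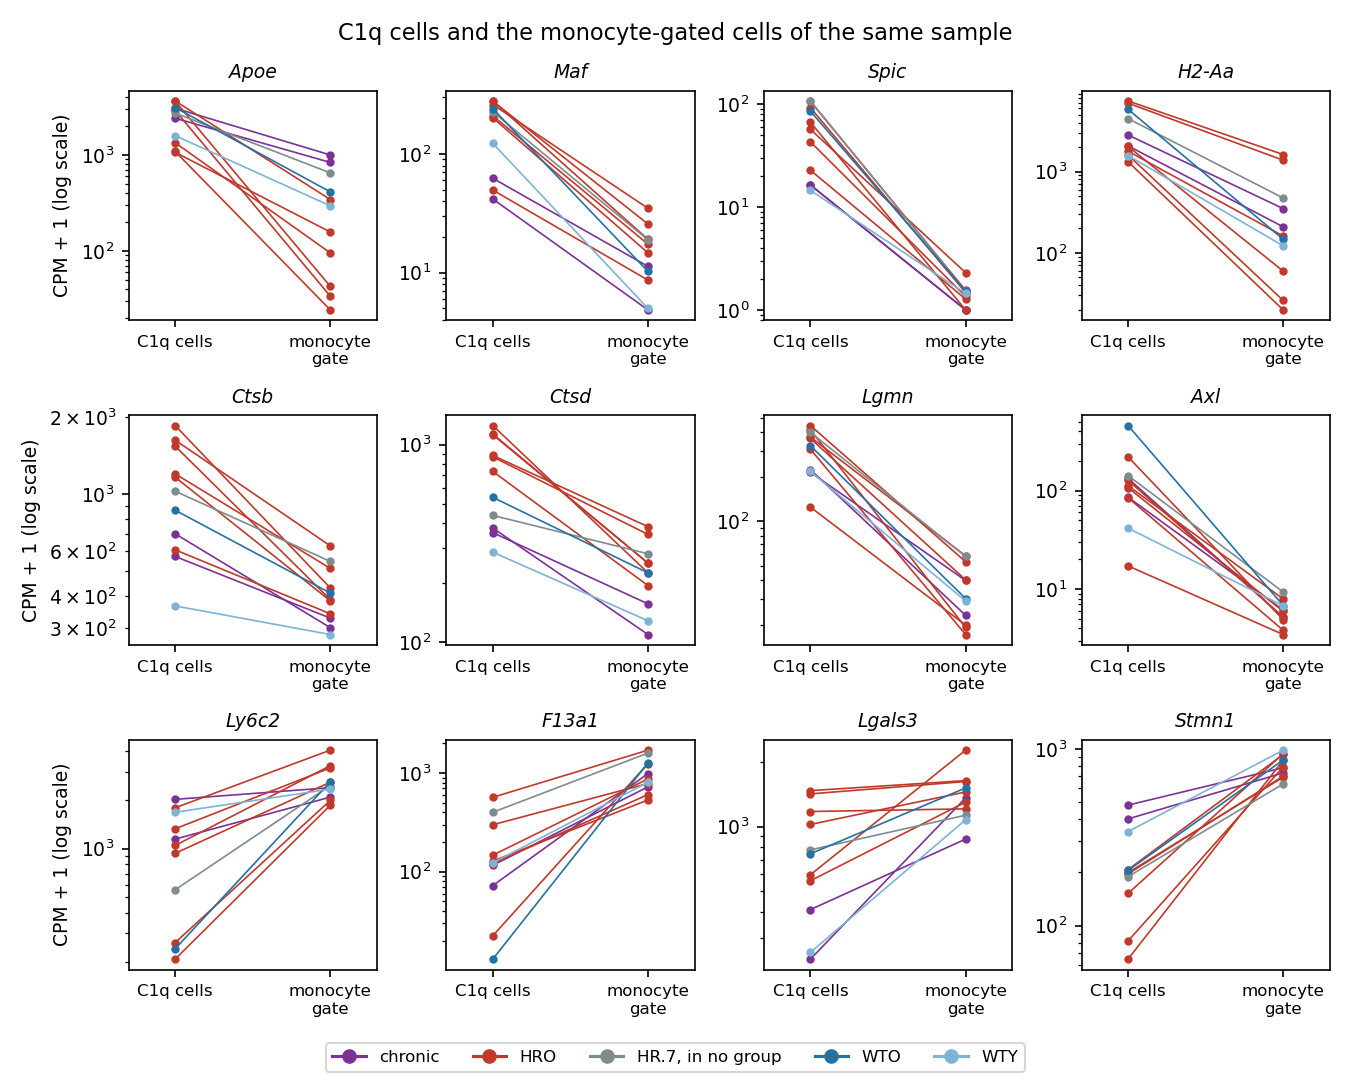
For 12 genes, each line joins the C1q cells (left) and the monocyte-gated cells (right) of 1 sample, as CPM + 1 on a log scale, colored by group. Apoe runs from 1061 to 3645 CPM in C1q cells and from 23.2 to 996 CPM in the gate, while Stmn1 is lower in C1q cells in 11 of 11 samples.

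Interferon-gamma and inflammatory genes divided the samples. Saa3 in C1q cells was 8265 CPM in HRO.7, 8295 CPM in HRO.8 and 7273 CPM in HRO.10, and at most 704 CPM in the other 8 samples, including 42.8 CPM in HRO.9. Cxcl9, a chemokine for activated T cells, was 2393, 3001 and 909 CPM in HRO.7, HRO.8 and HRO.10, and at most 238 CPM in the other 8. The monocyte gate of the same 3 samples also held the highest Saa3, at 881, 1071 and 683 CPM. Saa3 in C1q cells was above the own monocyte gate in 5 of 11 samples, while Ccl5, a chemokine of T cells and activated macrophages, was above in all 11.

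HRO.9 and HRO.12 had another profile. Fabp4, a fatty acid carrier, was 364 CPM in HRO.9 and 559 CPM in HRO.12, against 0 to 135 CPM in the other samples. Cd300e, a receptor of nonclassical monocytes, was 177 and 322 CPM there, against 0 to 135 CPM elsewhere, and Il1b was 557 and 292 CPM, with 314 CPM in HR.7 and 0 to 124 CPM in the rest. These 3 genes were chosen after their values were seen.

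Neutrophil transcripts differed widely between samples. S100a8, an abundant neutrophil protein gene, was lowest in HRO.9 at 551 CPM, and was 57983 CPM in HRO.5, 34773 CPM in HRO.11, 26816 CPM in WTO.4 and 88078 CPM in WTY.3, against 25865, 5565, 2792 and 20062 CPM in the monocyte gate of those samples. The 10 neutrophil markers summed to between 1206 CPM in HRO.10 and 198193 CPM in WTY.3. In WTO.4, 3 of the 10 were at 0, and in the other samples 0. Their part in the levels of other genes was not tested.

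**Figure D5:**
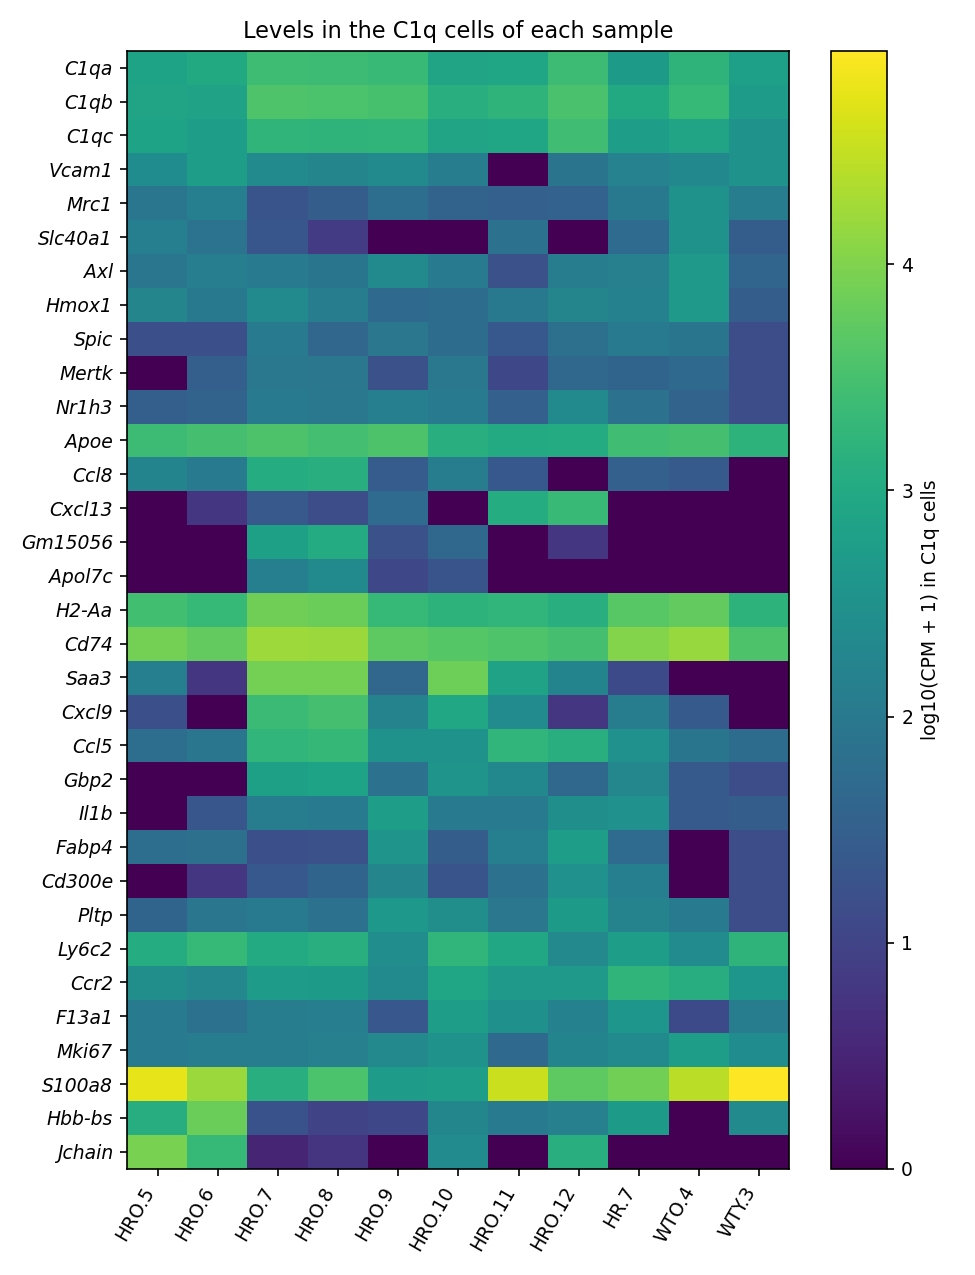
Rows are 33 genes and columns the 11 samples with at least 10 C1q cells, coloured by log10(CPM + 1) in C1q cells. Saa3 and Cxcl9 are high in HRO.7, HRO.8 and HRO.10, and S100a8 in HRO.5, HRO.11, WTO.4 and WTY.3.

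Within C1q cells, the chronic samples differed from the other HRO samples in 498 of 3782 genes tested (13.2%; edgeR quasi-likelihood test, adjusted p at most 0.05), with 366 higher (9.68%) and 132 lower (3.49%). WTY.3, a sample without the chronic label from the same pool, lay above every HRO sample for 219 of the 366 higher genes (59.8%), against 12.1% of all genes tested, and below every HRO sample for 128 of the 132 lower genes (97%), against 46.7% of all. The called genes were selected on these same HRO values and all genes tested were not, so these shares describe and do not test. Both chronic samples lay above WTY.3 for 173 of the 366 higher genes (47.3%) and below it for 71 of the 132 lower genes (53.8%). With both chronic samples in WBM_1 and all other HRO samples outside it, pool and chronic label cannot be told apart. Leaving out HRO.6 left 17 called genes, HRO.5 181 and HRO.7 319, and leaving out HRO.7 and HRO.8 left 234.

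Transcripts of other blood cells rose the most. Igha, the heavy chain of IgA, which near-identical immunoglobulin genes make uncertain, was 6775 CPM in the HRO.5 tag and 1289 CPM in the HRO.6 tag, against 0 to 26.8 CPM in HRO and 40.6 CPM in WTY.3 (log2 fold change 9.54, SE 0.767, edgeR adjusted p = 0.000333). Elane, a neutrophil granule protease, was 3514 and 3027 CPM, against 16.1 to 184 CPM in HRO (log2 fold change 6.35, SE 0.633, edgeR adjusted p = 0.001), and 6826 CPM in WTY.3. The B lineage antigens Ly6d and Ms4a1, the immunoglobulin light chain Iglc3, the globins Hba-a1 and Hbb-bs, and Oosp1 completed the 8 largest rises, at log2 fold changes of 6.51 to 7.33. Globin and immunoglobulin genes share reads with near-identical copies. B lineage, plasma cell and erythroid markers had median log2 fold changes of 3.78, 3.30 and 6.42 over 3, 3 and 4 genes tested, with 1, 1 and 4 of them called.

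Mrc1, Trf, Slc40a1 and Selenop rose among the resident macrophage markers. Mrc1 was 84.6 and 138 CPM in the chronic samples, against 18.2 to 58.9 CPM in HRO (log2 fold change 2.50, SE 0.41, edgeR adjusted p = 0.0045), and 122 CPM in WTY.3. Trf was 108 and 122 CPM, against 17.1 to 55.7 CPM in HRO (log2 fold change 2.55, SE 0.426, edgeR adjusted p = 0.00472), and 135 CPM in WTY.3. Slc40a1 was 138 and 76.4 CPM, against 0 to 70.4 CPM in HRO (log2 fold change 3.33, SE 0.974, edgeR adjusted p = 0.0477), and 27.1 CPM in WTY.3. Selenop, which carries selenium, was 400 and 433 CPM against 179 to 476 CPM in HRO, so the groups overlapped, with a log2 fold change of 1.20 (edgeR adjusted p = 0.0427). These were 4 of 13 resident macrophage markers tested, with 0 lower, beside 9.68% higher and 3.49% lower over all genes tested. Of 14 heme and iron genes 2 rose and 1, Lrp1, fell, with a median log2 fold change of -0.19.

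The largest falls were genes at 0 in both chronic samples. Gbp2, an interferon-induced GTPase, was 0 in both and 45.3 to 727 CPM in HRO. In the mean of the 6 HRO samples it was at least 37.4-fold higher. This bound is mean CPM without TMM scaling, over the floor of 3 counts in the whole chronic group. The mitochondrial tRNA synthetase gene Lars2, the immediate early gene Egr1, the interferon-induced Xaf1 and the nucleotide sugar receptor P2ry14 were also 0 in both. The same held for the stress factor Atf3, the NF-kB inhibitor Tnfaip3 and the deacetylase Sirt2. In the order named, their HRO means were at least 29.4, 12.9, 8.54, 8.35, 7.25, 7.15 and 6.33-fold higher. Single HRO samples can lie below these bounds: Atf3 was 9.28 CPM in HRO.10, against a floor of 9.19 CPM. Adjusted p-values of the 8 genes ran from 0.00553 for Egr1 to 0.0457 for Xaf1 (edgeR), and Gbp2, Xaf1 and Atf3 lost the call without HRO.7 (edgeR adjusted p of 0.0611, 0.0694 and 0.0652). Of these 8 genes WTY.3 was at 0 for Lars2, Egr1, Xaf1 and Sirt2. Fosb, an immediate early gene, was 0 and 5.1 CPM in the chronic samples, against 164 to 230 CPM in HRO, and 0 in WTY.3. Gm42418, chosen after its values were seen, took 92.3 and 81.5 CPM in the chronic samples, against 3459 to 18561 CPM in HRO, and 135 CPM in WTY.3.

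Interferon-gamma and inflammatory genes, taken as 1 list, were lower in the chronic samples on balance. All 16 genes tested had negative fold changes, while 44.9% of all genes tested had positive ones. The median log2 of the 16 was -3.38, also with the gene at 0 set to its bound, against -0.12 over all genes. Of the 16, 3 fell, beside 3.49% of all genes. Without TMM scaling, on UMIs pooled over samples, these medians were -4.01 and -0.72. Ccl5 was 61.5 and 86.6 CPM, against 343 to 1987 CPM in HRO (log2 fold change -3.44, SE 0.883, edgeR adjusted p = 0.0306), and 54.2 CPM in WTY.3. Cd274, the checkpoint ligand PD-L1, was 15.4 and 5.1 CPM, against 54.1 to 163 CPM in HRO (log2 fold change -2.96, SE 0.725, edgeR adjusted p = 0.0246), and 13.5 CPM in WTY.3. WTY.3 lay with the chronic samples for both genes.

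In the other lists, called genes stood beside 9.68% higher and 3.49% lower over all genes tested. Of 10 cell cycle genes 3 rose, of 9 neutrophil markers 2 rose, Elane and Mpo, and of 9 engulfment genes 1 fell, Lrp1. Of 18 lysosomal genes 1 rose, the membrane protein gene Cd63, at 438 and 484 CPM in the chronic samples, against 102 to 233 CPM in HRO and 962 CPM in WTY.3 (log2 fold change 2.33, SE 0.315, edgeR adjusted p = 0.00207). No complement (10 tested), MHC class II (8), type I interferon (12), lipid (12) or macrophage chemokine gene (10) passed the test, and 2 of 13 transcription factors and receptors fell, Zeb2 and Klf4. Of 82 tested ribosomal protein genes (symbols starting with Rpl or Rps), 44 were higher and 0 lower. Of the C1q cells, 82.4% in HRO.5 and 64.3% in HRO.6 also passed a neutrophil, B, T or NK or erythroid gate. Among the other HRO samples this share ran from 7.32% in HRO.9 to 68% in HRO.12. The chronic fit without these droplets gave no value, and their part in these changes was not tested.

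HRO samples were set against the samples of the other groups with at least 10 C1q cells, WTO.4 and WTY.3, with pool as a term. Of 3857 genes, 0 (0%) passed an adjusted p of 0.05 in edgeR's quasi-likelihood test, with 435 at an unadjusted p under 0.05, while DESeq2 called 12. The contrast rests on WTO.4 against HRO.7, HRO.8 and HRO.9 and has 3 residual degrees of freedom. WTO.4 had 11 C1q cells. Of these, 1 passed the neutrophil gate and held 23908 UMIs, against a median of 6115 UMIs in the others. Its part in the WTO.4 levels was not tested. Trf was 17.1 to 55.7 CPM in HRO, against 252 and 135 CPM in WTO.4 and WTY.3 (log2 fold change -3.68, SE 0.438, edgeR adjusted p = 0.23). Mrc1 was 18.2 to 58.9 CPM, against 336 and 122 CPM (log2 fold change -3.75, SE 0.561, edgeR adjusted p = 0.293). All 16 interferon-gamma and inflammatory genes tested had positive fold changes, against 51.9% of all genes tested, and 0 of 16 passed the test. The median log2 of the 16 was 3.62 (3.06 with the 4 genes at 0 in WTO.4 and WTY.3 set to their bound), against 0.04 over all genes. In a fit of this size, a p above 0.05 does not show that the levels were alike.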

How the data were processed

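Whole marrow from 20 hashtag samples was sequenced as 7 libraries in 4 pools. The authors deposited raw UMI counts per gene and cell, made with Cell Ranger 3.0.0 (WBM_1) and 3.1.0 (the others), per the file headers, and bcl2fastq, Cell Ranger, Seurat and mm10, per the submitters' processing notes. Barcodes with at least 300 genes and under 10% mitochondrial UMIs were kept: 6913 had fewer genes and 15060 failed the mitochondrial limit. Hashtags were assigned with Seurat 5.3.0 HTODemux (positive quantile 0.99, centred log ratio across cells). Droplets with several hashtags were left out of sample comparisons, and no other doublet caller was run. C1q cells were taken by their summed C1q UMIs, and the members, lists and tests were chosen with earlier results of these data known.

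UMI counts were summed over the C1q cells of each sample with at least 10 of them and tested with edgeR 4.0.16 (R 4.3.3, limma 3.58.1), with TMM, filterByExpr and Benjamini-Hochberg adjustment, and with DESeq2 1.42.0 as an alternative. Each fit was also run on simulated counts, drawn with the same dispersion for all genes and without pool effects or mixed droplets. That run checks the procedure and does not vouch for the calls made here. Shares were compared by exact two-sided permutation over samples, all splits enumerated, adjusted over 5 pairs (Python 3.11.15, numpy 2.4.6, scipy 1.17.1, pandas 2.3.3). CPM are summed UMIs scaled to a total of 1e6, and a floor is 3 counts. Genes were named by rule: the given markers, the 12 largest ratios over the monocyte gate and over the rest at 50 CPM or more, the 8 largest rises and falls of each fit at 20 CPM or more, and up to 4 members of each list. Promoters came from RefSeq (GRCm38.p6). 1 gene of the lists is not reported here.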

Additional observations from a re-analysis of the deposited data

Results flagged for a closer look

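Among 35 genes examined over the 6 HRO samples, 5 had 1 sample far from the other 5; chance flags about 1 in 20 groups. Slc40a1 was 70.4 CPM in HRO.11. Ly6d was 40.3 CPM in HRO.12. Ms4a1 and Oosp1 were both 18.6 CPM in HRO.10, but had only 2 and 3 UMIs over all 6 HRO samples. The rate of 1 in 20 need not hold for counts this low. Elane was 184 CPM in HRO.11. Signals also appeared outside the compared groups. HR.7, which is in no group, held 1.89% C1q cells. Droplets with several hashtags, which entered no sample comparison, held 1.88% C1q cells. A further 45 cells outside the rule had at least 4 C1q UMIs that were all C1qb.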

How the results depend on the processing

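The difference in share between HRO and WTO kept its sign in every alternative run but lost an adjusted p of 0.05 in most: 1.88 points with at least 2 C1q UMIs, 1.44 after thinning to 2000 UMIs, 1.72 at a mitochondrial limit of 5% and also at 20%, 1.68 with the hashtag log ratio taken within each cell, 7.17 with monocyte-gated plus C1q cells as the denominator, 0.853 without HRO.7 and HRO.8, and 1.18 to 2.04 when 1 sample was left out. With fewer samples the smallest adjusted p lay above 0.05, so the lost call there says nothing about stability. The difference between HRY and WTY changed sign at 8 C1q UMIs (-0.0385), after thinning (-0.108), at the 5% limit (-0.0145), at 1000 genes (-0.0793), without mixed droplets (-0.00179), with the within-cell log ratio (-0.0551) and over samples left out (-0.0988 to 0.124). The difference between WTO and WTY changed sign at 1000 genes (-0.01) and over samples left out (-0.0351 to 0.227). The difference between chronic and HRO was 0.0416 without HRO.7 and HRO.8 and ran from -1.17 to -0.283 with 1 sample left out, and that between HRO and HRY from 1.28 to 2.14. The causes were not tested.

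Between chronic and HRO, 234 genes were called without HRO.7 and HRO.8, and 17 to 548 with 1 sample left out; a group left with 1 sample is assumed to vary like the other. For HRO against WTO.4 and WTY.3 the count was 12 with DESeq2, 107 of 13900 without a filter, 2 with samples of at least 5 C1q cells, 6 without the pool term, 2 with the within-cell log ratio, and 0 to 1 with 1 sample left out. Of 221 values of the 16 genes with the largest changes, 36 lost the call under an alternative and 0 changed sign. The denominator and the exclusion of HRO.7 and HRO.8 were chosen after seeing the data. Some alternatives gave no value: a minimum of 20 cells in both fits, a pool term in the chronic fit, both fits without mixed droplets, the within-cell log ratio in the chronic fit, and 8 C1q UMIs or leaving out WTO.4 in the other. For HRO no paired analysis was possible because its tag numbers occur in no other group. With the tag number as a replicate block, a check added after seeing the data, the difference was 0.145 points for HRY and WTY (2 pairs) and 0.18 for WTO and WTY (3 pairs), with an exact adjusted p of 1 in both; no label says that these numbers pair samples. The 4 samples without a C1q cell allow shares of up to 0.197% to 0.301%.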
